A study of Homo sapiens with 17 samples.

Results

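CREB1 bound 3789 places in LNCaP-abl cells that carried no CREB1 peak in LNCaP cells and no FOXA1 peak in LNCaP-abl cells. LNCaP is an established human prostate cancer line that needs androgen to grow, and the subline LNCaP-abl, called abl here, does not. A site was taken where a peak of the abl CREB1 list shared no base with any LNCaP CREB1 peak and no base with any abl FOXA1 peak, on the hg19 coordinates of the files. These sites made up 13.7% of the 27629 abl CREB1 peaks (95% exact binomial interval 13.3% to 14.1%). All intervals here cover counting error only. The sites were thus chosen by the measured overlaps of the peaks, and their being private to abl and free of FOXA1 is a definition and not a finding.

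The series holds 17 samples, of which 3 chromatin immunoprecipitation (ChIP-seq) samples and 6 RNA samples were used and 8 ChIP-seq samples from knockdown experiments were not analysed here. Per the labels, LNCaP cells were at passages 32 to 34 and grew in 10% serum, whereas abl cells were at passages 62 to 64 and grew in 10% charcoal-stripped serum, from which most steroids have been removed. No siRNA is named for the 3 ChIP-seq samples. For RNA, each line received a control siRNA (siControl) or an siRNA against CREB1 or FOXA1 at 40 nM for 3 days in 5% charcoal-stripped serum. Each RNA sample came with 2 count columns, taken as 2 libraries, and nothing in the labels says that these came from separate cultures, so the spread between them may be technical. Line, passage and serum differed together between the 2 CREB1 ChIP-seq samples and cannot be told apart. Each factor and line had 1 peak list, so no comparison of peaks has a replicate check, and none carries a test.

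CREB1 is a leucine zipper transcription factor that binds the cyclic AMP response element, often in promoters, and is switched on when protein kinase A or other kinases phosphorylate it. The phosphorylated protein recruits the co-activators CREBBP and EP300, and the CRTC proteins form a separate route to activation. FOXA1 is a forkhead pioneer factor that opens chromatin in luminal prostate cells, mostly at enhancers.

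The abl CREB1 peaks fell into 4 classes. Beside the 3789 sites private to abl without FOXA1 there were 5407 peaks private to abl that overlapped FOXA1 (19.6%). A further 10659 peaks overlapped a LNCaP CREB1 peak but not FOXA1 (38.6%), and 7774 overlapped both (28.1%). Of the 9196 peaks private to abl, 41.2% (40.2% to 42.2%) lacked FOXA1, whereas 57.8% (57.1% to 58.5%) of the 18433 peaks seen in both lines did. Both shares come from the overlaps that define the classes, and the classes differ widely in score, so they are a description. Read the other way, 26.2% (25.5% to 27.0%) of the 14448 FOXA1-free abl peaks were private to abl, against 41.0% (40.2% to 41.9%) of the 13181 abl peaks that overlapped FOXA1. Within bands of like score this gap was smaller. Between scores of 80 and 100, 1412 FOXA1-free peaks were private and 450 were seen in both lines, against 1958 and 527 with FOXA1. Between 150 and 200 these counts were 469 and 966, against 766 and 1076 with FOXA1. The LNCaP list, not split by score, did not show such a gap. Among its 12867 peaks free of abl FOXA1, 15.0% (14.4% to 15.6%) had no abl CREB1 peak, and among the 9124 that overlapped abl FOXA1, 16.0% (15.3% to 16.8%) had none. The abl list is longer than the LNCaP list of 21991 peaks. What list length adds to the larger private share in abl was not tested. Cut by score to the length of the LNCaP list, the abl list held 4940 private peaks, 2023 of them private and free of FOXA1. This alternative was chosen after seeing the data, and private LNCaP peaks were not counted again against the cut list.

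Most of these sites were weak peaks. The authors' score, which ranks peaks within a list, had a median of 110.9 in the private FOXA1-free sites, with quartiles of 91.87 and 145.65, where the list starts at 80. The private peaks that overlapped FOXA1 had the same median, 110.9. Peaks of both lines stood well above, at a median of 424.97 without FOXA1 and 266.68 with FOXA1. The score of the private FOXA1-free sites ranged from 80.01 to 1558.9, and the highest of them ranked 1378 in the list of all abl CREB1 peaks.

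With the abl list split by score into 10 equal parts, the sites made up 34.0% of the lowest part, 28.8% of the next and 25.9% of the third. Their share then fell at every step, through 20.4%, 13.4%, 9.13%, 3.69% and 1.41%, to 0.290% and 0.145% in the 2 highest parts. The top part held 4 of the sites and the lowest held 940. Among FOXA1-free peaks alone, the private share ran from 77.4% in the lowest part to 0.228% in the top part. A CREB1 peak without FOXA1 in the weakest part of the abl list was therefore usually absent from the LNCaP list, and one in the strongest part almost never was. The reads behind the scores, and the depth of either CREB1 sample, were not given in the files used here, so whether LNCaP held weaker binding at these places was not tested.

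**Figure D1:**
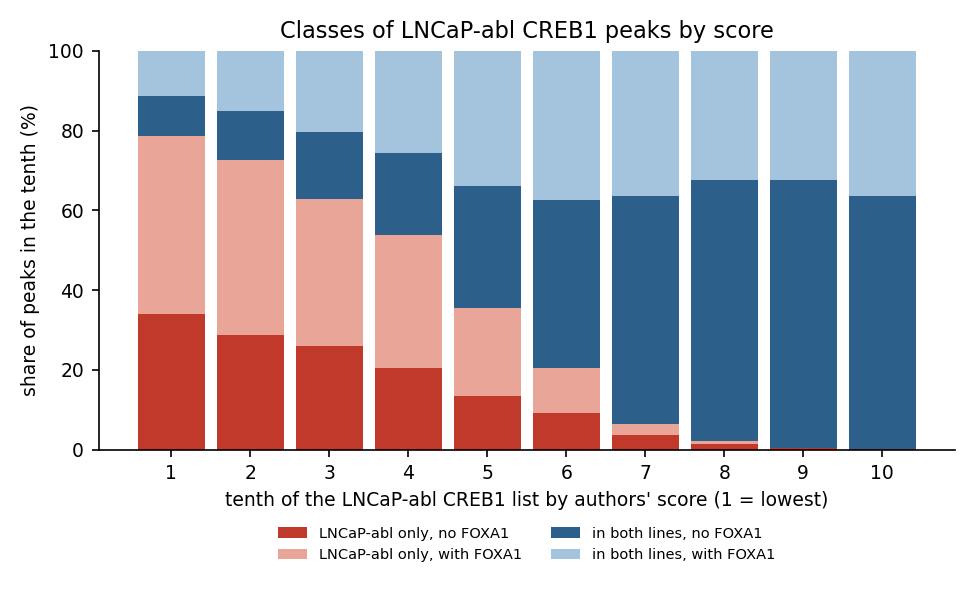
Share of the 4 classes (stacked bars, percent of peaks) in each of 10 equal parts of the abl CREB1 list ordered by the authors' score, from lowest to highest. The dark red share, private to abl without FOXA1, falls from 34.0% to 0.145%, while peaks of both lines (blue) fill the upper parts.

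The sites were narrow, with a median width of 504 bp and quartiles of 437 and 581 bp, against 777 bp for FOXA1-free peaks of both lines and 536 bp for private peaks with FOXA1. Only 96 sites (2.53%) were wider than 1000 bp, against 27.7% of the FOXA1-free peaks of both lines. Together the 3789 sites covered 2022 kb. Width rises with score in these lists, and at matched score the gap mostly closed. Between scores of 80 and 100 both FOXA1-free classes had a median width of 456 bp. Between 100 and 150 the private sites had 513 bp and the sites of both lines 523 bp, and between 200 and 400 the values were 648 and 683 bp. From a score of 400 upward the private sites were narrower, at 803 bp for 60 sites against 961 bp for 5576 sites of both lines, a band in which the sites of both lines also reached far higher scores. The widest site, chr20:57465748-57468096, was 2349 bp wide at a score of 89.86, and a LNCaP CREB1 peak lay 1269 bp from its edge.

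**Figure D2:**
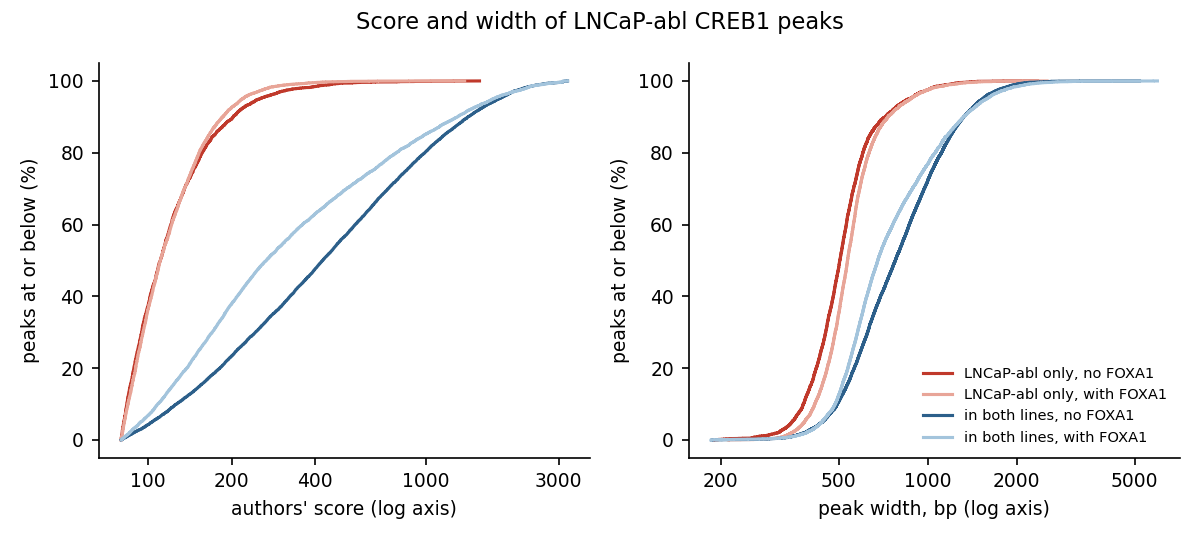
Cumulative share of abl CREB1 peaks (percent) at or below a given authors' score (left, log axis) and width in bp (right, log axis), one line per class. The 2 private classes (reds) overlie each other in score with a median of 110.9, far left of the peaks of both lines, and the private sites without FOXA1 are the narrowest class at a median of 504 bp.

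Although the 2 private classes had the same median score, their upper ends differed. At a score of 200 or more stood 403 of the FOXA1-free private sites (10.6%) and 400 of the private sites with FOXA1 (7.40%). At 400 or more the counts were 60 (1.58%) and 26 (0.481%), and at 1000 or more they were 5 (0.132%) and 1. Accordingly, the share of private peaks that lacked FOXA1 was 41.9% between scores of 80 and 100, 39.7% between 100 and 150 and 38.0% between 150 and 200. It was 47.8% (44.1% to 51.6%) between 200 and 400 and 69.8% (58.9% to 79.2%) at 400 and over, where 60 of 86 private peaks lacked FOXA1. Peaks of both lines showed a like course, from 46.1% between 80 and 100 to 57.0% (55.6% to 58.4%) between 200 and 400 and 66.0% (65.0% to 67.0%) at 400 and over. The share of private peaks was below that of common peaks in each band under 400 and above it at 400 and over. The share of strong private peaks without FOXA1 moved with the rule. It was 83.7% with only FOXA1 peaks at or above their median score counted and 63.9% with peaks within 1000 bp taken as overlapping. With only LNCaP CREB1 peaks at or above their median score counted, it was 61.3%. The share of common peaks was not computed under these rules, so whether that last order holds under them was not tested. Peaks are not replicates, and these shares are a description.

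The 10 sites of highest score spanned 792.53 to 1558.9 and had a median width of 782.5 bp. The highest, chr11:50257302-50258111, had a score of 1558.9, and its nearest CREB1 peak of either line and its nearest FOXA1 peak lay 466407 bp and 123791 bp away. Next came chr8:33579528-33580212 at 1365.06, which was 154426 bp from a LNCaP CREB1 peak and 19130 bp from FOXA1. The third, chr22:51143541-51144295 at 1258.59, stood 26245 bp from LNCaP CREB1 and 90927 bp from FOXA1. These 3 sites had no FOXA1 peak within 10000 bp. Others lay just beside one. The site chr4:111543884-111544765, at a score of 1115.42, was 160 bp from a FOXA1 peak, and its nearest CREB1 neighbour, 8215 bp away, was another site of the same class. The site chr5:87971356-87972124, at 909.54, was 109 bp from a FOXA1 peak, and chr3:120003684-120004419, at 803.11, was 809 bp from one. These 3 were the sites among the 10 with FOXA1 within 1000 bp. Of the 4 remaining sites, chr9:124975706-124976808 (1040.05) lay 3126 bp from a LNCaP CREB1 peak, chr4:134070027-134070688 (980.67) 89294 bp, chr4:156679678-156680533 (842.01) 18929 bp and chr17:61926139-61926934 (792.53) 5332 bp. Thus 8 of the 10 were more than 10000 bp from any LNCaP CREB1 peak, and 5 of the 10 were that far from FOXA1. Of all 3789 sites, 995 (26.3%) had a LNCaP CREB1 peak within 10000 bp and 1883 (49.7%) had a FOXA1 peak within that distance.

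The rule turns on a single shared base, so sites near that line are given as a description. The sites nearest to a LNCaP CREB1 peak were chr9:132145767-132146314, 3 bp away with a score of 125.66, and chr9:85833967-85834448, 8 bp away with 117.05. Just outside the class, chr3:49590800-49591315 (95.09) shared 3 bp and chrX:70474327-70474789 (148.64) shared 4 bp with a LNCaP peak. On the FOXA1 side, chr3:169846675-169847169 (82.78) and chr21:45930328-45930849 (212.28) lay 2 and 7 bp from a FOXA1 peak. Just outside, chr6:84140502-84141170 (151.11) and chr4:52917352-52917842 (128.62) shared 2 and 3 bp with one. Few peaks were left out by so thin a margin: 9 FOXA1-free peaks of both lines shared at most 100 bp with a LNCaP peak, and 54 private peaks shared at most 100 bp with FOXA1.

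Beyond the edge that the rule sets, most sites lay more than 10000 bp from any LNCaP CREB1 peak. The median distance to the nearest LNCaP CREB1 peak was 26063 bp, with quartiles of 9372 and 67401 bp, against 35974 bp for the private peaks with FOXA1. Of the FOXA1-free sites 241 (6.36%) had a LNCaP peak within 1000 bp against 158 (2.92%) of those with FOXA1, and within 10000 bp the counts were 995 (26.3%) and 1002 (18.5%). At the other end, 626 sites (16.5%) had no LNCaP CREB1 peak within 100000 bp. The site farthest from any, chr6:67841904-67842163, was 2100590 bp away and weak at a score of 82.19, and had a FOXA1 peak 3791 bp from it. A LNCaP peak lay within 1000 bp of 2.98% of the 403 sites with a score of 200 or more and of 6.76% of the 3386 weaker sites.

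Distances to FOXA1 were much like those of the FOXA1-free peaks of both lines. The median distance to the nearest FOXA1 peak was 10133 bp (quartiles 3374 and 23636 bp) for the private sites and 9704 bp (2985 and 24055.5 bp) for the sites of both lines. Within 1000 bp of a FOXA1 peak lay 382 private sites (10.1%) and 1273 sites of both lines (11.9%), and within 10000 bp the shares were 49.7% and 50.8%. The FOXA1 peaks within 1000 bp of a private site were of ordinary strength, with a median score of 207.66 against 207.695 for all 79242 FOXA1 peaks. FOXA1 peaks that shared a base with an abl CREB1 peak had a higher median of 353.985. Strong private sites were no farther from FOXA1 than weak ones, with medians of 8949 bp at scores of 200 or more and 10298.5 bp below. Taking both lists, 555 sites (14.6%) lay within 1000 bp of a LNCaP CREB1 or a FOXA1 peak, 1533 (40.5%) were more than 10000 bp from both, and 48 (1.27%) were more than 100000 bp from both.

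**Figure D3:**
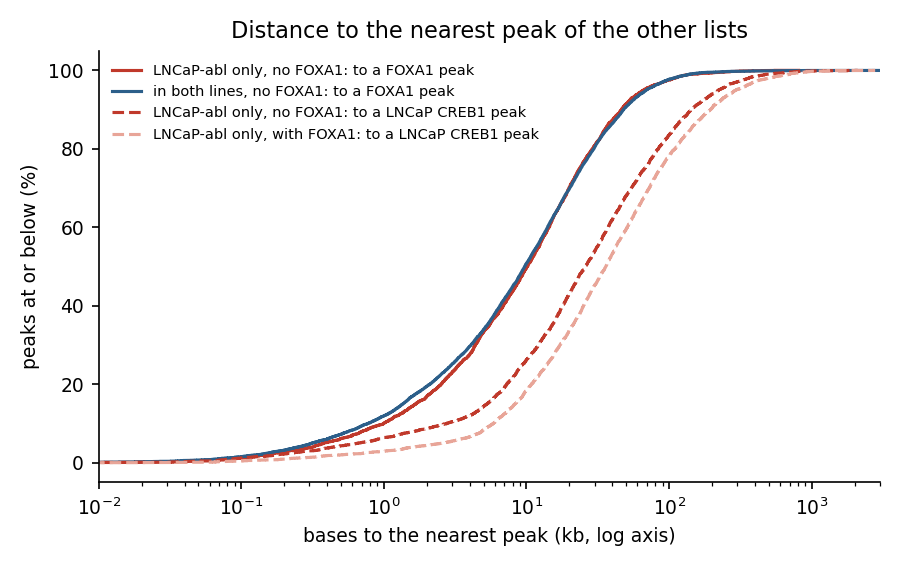
Cumulative share of peaks (percent) by distance to the nearest peak of another list (kb, log axis). Solid lines give the distance to FOXA1, where private (red) and common (blue) FOXA1-free sites nearly coincide at medians of 10133 and 9704 bp. Dashed lines give the distance to LNCaP CREB1, where private sites without FOXA1 lie closer than private sites with FOXA1, at medians of 26063 and 35974 bp.

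Within abl, most sites lay apart from other sites of their class. The other classes were not grouped in this way, so there is no baseline for these counts. When sites no more than 10000 bp apart were joined, 3484 of 3789 (92.0%) stood alone, 139 pairs and 9 trios formed, and no group was larger. At 2000 bp 52 pairs formed, and at 50000 bp the largest group held 6 sites. Some paired sites lay almost side by side, as on chromosome 1, where 25 bp parted a pair. The trio of highest score, chr19:49042693-49055649, spanned 12.957 kb with scores from 82.77 to 302.98 and held no FOXA1 peak and no LNCaP CREB1 peak. The trio at chr2:238383904-238396050 spanned 12.147 kb, with scores from 103.49 to 210.82, and held 1 FOXA1 peak. The trio at chr15:75109259-75127988 spanned 18.73 kb with scores from 89.95 to 199.85. In each of the 9 trios, the 3 sites were the only abl CREB1 peaks within the span, and none of the 9 held a LNCaP CREB1 peak.

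The nearest other abl CREB1 peak lay at a median of 18322 bp, close to the 18188 bp of FOXA1-free peaks of both lines and less than the 24289 bp of private peaks with FOXA1. Of the 1279 sites with a CREB1 neighbour within 10000 bp, 267 (20.9%) had another site of their own class as the nearest one, a class that makes up 13.7% of the list. For 537 (42.0%) it was a FOXA1-free peak of both lines, which make up 38.6% of the list. Neighbours that overlapped FOXA1 were fewer than their part of the list: 183 (14.3%, against 19.6%) were private with FOXA1 and 292 (22.8%, against 28.1%) were common with FOXA1. Both FOXA1-free classes thus made up more of the neighbours than of the list, and both classes with FOXA1 made up less. Neighbours are not independent of each other, and no test was made.

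The sites occurred on 24 chromosomes and in 557 of 603 windows of 5 Mb that held an abl CREB1 peak. In the 156 windows with at least 30 FOXA1-free abl sites, the private share had a median of 25%, with quartiles of 19.3% and 30.2% and a range of 7.45% to 47.1%. The share was highest at 10 to 15 Mb of chromosome 11, with 16 of 34 sites (47.1%, 29.8% to 64.9%) and no LNCaP-only FOXA1-free site. Next came 100 to 105 Mb of chromosome 8 (15 of 32, 46.9%, with 2 LNCaP-only sites). It was also high at 170 to 175 Mb of chromosome 5 (21 of 47, 44.7%, with 3 LNCaP-only sites). At 110 to 115 Mb of chromosome 2 it was 44.4% (16 of 36, again with no LNCaP-only site). The lowest share was at 55 to 60 Mb of chromosome 19, with 7 of 94 sites (7.45%, 3.05% to 14.7%). Windows with the most private sites were those with many CREB1 sites in all, such as 65 to 70 Mb of chromosome 11 with 28 of 119.

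Counted against the reverse class, the sites were uneven over chromosomes. LNCaP had 1931 CREB1 peaks with no abl CREB1 peak and no abl FOXA1 peak, so the ratio of abl-private to LNCaP-private sites was 1.96 overall. FOXA1 was mapped in abl only, and LNCaP FOXA1 was not analysed here. On chromosome 2 the counts were 320 and 73, a ratio of 4.38, and on chromosome 22 they were 113 and 42, a ratio of 2.69. Chromosomes 15 and 8 followed with 2.46 and 2.45. At the low end stood chromosome 9, with 118 and 121 (0.975), and chromosome 18, with 38 and 76 (0.5). Chromosome Y was lower still, but on few sites, with 3 and 19 (0.158). Chromosomes 9 and 18 were thus the autosomes on which abl-private sites did not outnumber those of LNCaP. The private share of FOXA1-free abl peaks gave a partly different order. It was 35.2% on chromosome 8, 34.5% on chromosome 21 and 33.7% on chromosome 2, although the site ratio of chromosome 21 was only 1.68. It was 19.8% on chromosomes 9 and X, 18.8% on chromosome 18 and 15.6% on chromosome 19, although the ratio of chromosome X was 2.15. On chromosome Y it was 15%, from 3 of 20 peaks.

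RNA, which the rule did not use, was compared over the same chromosomes. For each chromosome, the median log2 difference of its genes between abl and LNCaP under siControl was set beside the site ratio. Chromosome assignments came from RefSeq on GRCh38.p14 by gene symbol and covered 14776 of the 15550 genes tested. Genes on chromosome 8 had a median log2 difference of 0.26, those on chromosome 2 of 0.23 and those on chromosome 4 of 0.21. Genes on chromosome 9 had a median of -0.44, those on chromosome 18 of -0.40 and those on chromosome 19 of -0.22. Other chromosomes stood apart in the 2 orders. Chromosome 22, second by site ratio, had an RNA median of -0.03, chromosome 17, with a ratio of 2.12, had -0.14, and chromosome 10, with a low ratio of 1.57, had 0.12. Of genes on chromosome 9, 59.8% were called lower in abl and 14.7% higher, and on chromosome 18 these shares were 53.7% and 15.4%. On chromosome 2, 45% were called higher and 22.3% lower, and on chromosome 8, 47.4% and 23.1%. Over all genes tested, 63.6% were called, 30.5% as higher and 33.1% as lower in abl. Calls rest on edgeR's quasi-likelihood test, with a Benjamini-Hochberg adjusted p under 0.05.

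Over 23 chromosomes (Y, with 3 sites, was left out), the log2 site ratio and the median RNA difference had a Pearson r of 0.78 and a Spearman rho of 0.67. Without chromosomes 18 and 9, the 2 farthest from the median log2 ratio, r was 0.57 and rho was 0.57. On the ratio itself chromosome 2 is the farthest, and without it as well r was 0.45 and rho was 0.51 over 20 chromosomes. The chromosomes share 2 CREB1 lists and 4 RNA libraries, so these values are a description. The relation was not particular to sites without FOXA1. The ratio of private peaks with FOXA1 (5407 in abl and 1460 in LNCaP, 3.70 overall) gave an r of 0.78 and a rho of 0.54. Without chromosomes 18 and 9, the ratio with FOXA1 gave an r of 0.58 and a rho of 0.40. The 2 ratios went together over chromosomes with an r of 0.86, and of 0.74 without chromosomes 18 and 9. With FOXA1, chromosomes 2, 8 and 22 were highest, at 7.62, 6.80 and 6.23. Without FOXA1 the order was chromosomes 2, 22, 15 and 8. Whether the DNA content of the chromosomes differs between the lines was not tested.

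**Figure D4:**
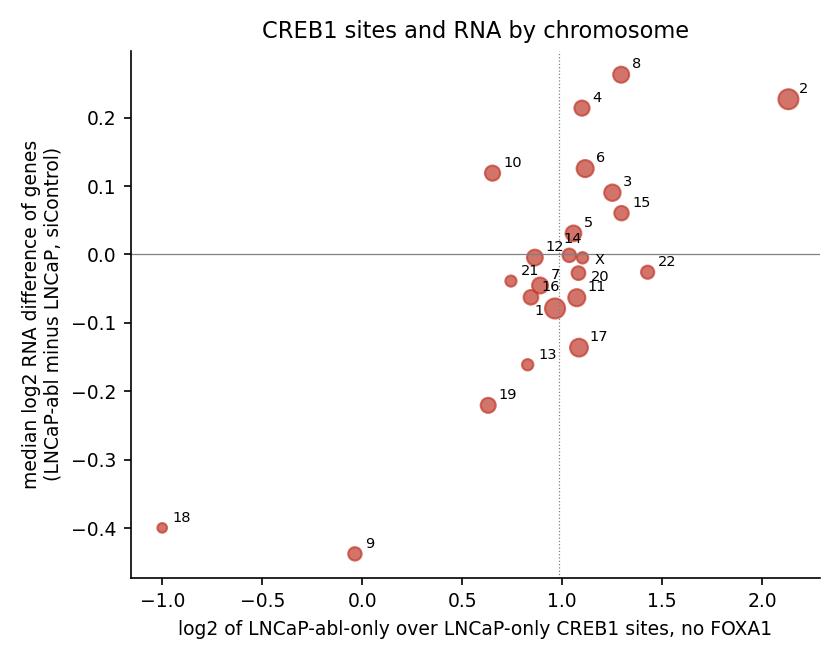
Each point is a chromosome, its area growing with the number of private abl sites. The x axis gives the log2 of abl-only over LNCaP-only FOXA1-free CREB1 sites, with the overall ratio dotted, and the y axis the median log2 RNA difference of its genes. Chromosomes 18 and 9 lie at the lower left and chromosome 2 at the upper right, with a Pearson r of 0.78 over 23 chromosomes.

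CREB1 RNA itself was not called different between the lines. CREB1 stood at 81.0 and 85.3 CPM (counts scaled to library size) in the LNCaP siControl libraries and at 78.8 and 79.7 CPM in those of abl, a log2 difference of -0.07 ± 0.09 (SE, edgeR adjusted p = 0.541). The 2 lines did not overlap, but their gap was no larger than the spread within LNCaP. FOXA1 was lower in abl, at 556.4 and 504.1 CPM against 798.8 and 695.4 CPM, a log2 difference of -0.49 ± 0.08 (edgeR adjusted p = 0.000129). Luminal markers were present in both lines: the keratin KRT8 stood at 636.2 and 517.8 CPM in LNCaP and 347.5 and 303.8 CPM in abl, and the surface marker EPCAM at 132.1 and 134.2 CPM and at 102.1 and 100.9 CPM. Fibroblast markers summed to 59.7 to 67.2 CPM in LNCaP and 11.2 to 12.5 CPM in abl, with COL1A2 at 0. The 3 endothelial markers summed to 28.7 to 31.4 CPM in LNCaP and 0.780 to 1.5 CPM in abl. Their part in the RNA differences was not tested.

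RNA of the CREB and ATF family, with CREB1 and the co-activators counted in, moved unevenly. Of 24 genes of the CREB and ATF family with its co-activators, 20 passed the filter on low counts, and of these 10 were called higher in abl, 3 lower and 7 not called, beside 30.5% higher and 33.1% lower among all genes tested. Their median log2 difference was 0.19, against -0.02 for all genes tested. ATF1, the closest relative of CREB1 beside CREM, rose from 25.1 and 30.2 CPM to 45.3 and 54.4 CPM, a log2 difference of 0.84 ± 0.11 (edgeR adjusted p = 1.57e-05). CREM was at 16.4 and 16.7 CPM in LNCaP and 15.7 and 14.6 CPM in abl (edgeR adjusted p = 0.38). ATF4, the effector of the integrated stress response, rose from 237.0 and 249.0 CPM to 1337 and 1305 CPM, a log2 difference of 2.44 ± 0.06 (edgeR adjusted p = 4.44e-13). The stress-induced factor ATF3 rose by 1.84 ± 0.09 and the membrane-bound factor CREB3L2 by 1.87 ± 0.08 on the log2 scale. CREB5 fell from 6.83 and 6.41 CPM to 0.50 and 0.446 CPM, a log2 difference of -3.75 ± 0.22. In ATF1, ATF4 and CREB5 the libraries of the 2 lines lay clearly apart.

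Among the co-activators, CRTC1 fell from 77.0 and 73.9 CPM to 39.3 and 37.4 CPM, a log2 difference of -0.97 ± 0.09 (edgeR adjusted p = 2.38e-07), and CRTC3 rose by 0.31 ± 0.07. The acetyltransferases CREBBP and EP300 and the co-activator CRTC2 had log2 differences of 0.10, 0.13 and -0.02 and were not called. Of 23 genes of protein kinase A and cyclic AMP turnover, 22 passed the filter, with 9 called higher, 9 lower and 4 not called, beside 30.5% higher and 33.1% lower among all genes tested, and a median log2 difference of -0.09. The catalytic subunit PRKACB fell from 1683 and 1698 CPM to 483.9 and 469.4 CPM, a log2 difference of -1.83 ± 0.08 (edgeR adjusted p = 8.95e-11). The catalytic subunit PRKACA fell by 0.66 ± 0.07 on the log2 scale. The regulatory subunit PRKAR2B, which holds the kinase inactive, rose by 0.94 ± 0.11, while PRKAR1B fell by 1.56 ± 0.09. Of enzymes that make cyclic AMP, ADCY1 fell by 2.59 ± 0.13, ADCY6 fell by 1.48 ± 0.08 and ADCY3 rose by 1.12 ± 0.10. Of the phosphodiesterases that break it down, PDE4B rose from 0.217 and 0.128 CPM to 2.81 and 2.45 CPM. PDE7A rose by 1.00 ± 0.07, PDE3B by 0.86 ± 0.12 and PDE4D by 0.71 ± 0.12, while PDE4A and PDE8A were not called. The kinase inhibitor gene PKIB fell by 1.02 ± 0.09, and PKIG fell by 0.51 ± 0.09. RNA levels say nothing of phosphorylated CREB1, which was not measured in the files used here.

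**Figure D5:**
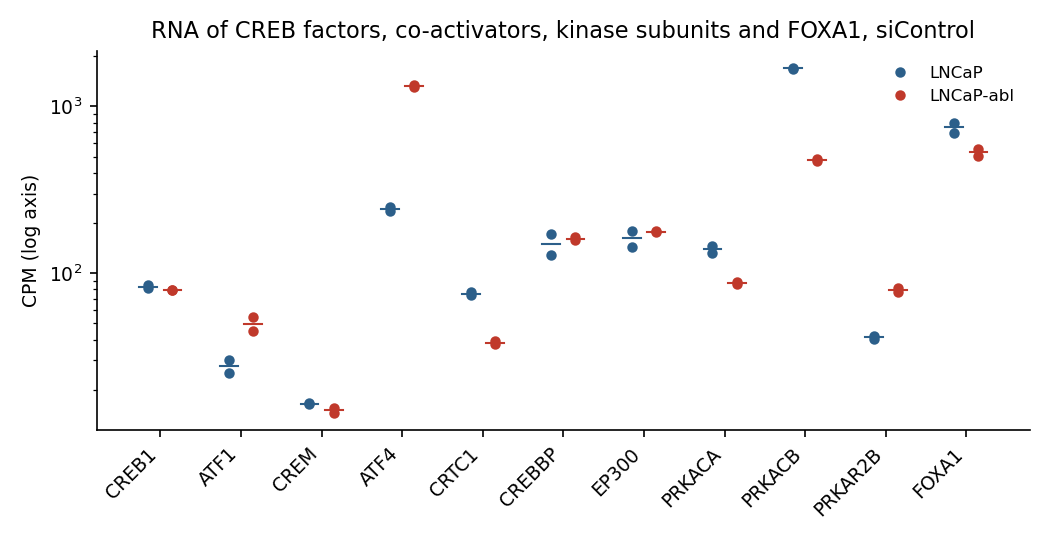
CPM (log axis) of 11 genes under siControl, with 1 point per library, 2 libraries per line (LNCaP blue, abl red) and a bar at their mean. CREB1 sits at 78.8 to 85.3 CPM in all 4 libraries, while ATF4 is higher and PRKACB and FOXA1 are lower in abl.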

How the data were processed

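The deposited ChIP-seq peak lists give hg19 positions and a score for each peak. The submitters' processing notes list Bowtie 1.0.0 and MACS 1.4.2 among the tools. No source used here gives the input control, any pooling of libraries or the read depth. Scores were compared only within a list, except in an alternative for the chromosomes that asked for a score of at least 100 in both CREB1 lists. The deposited RNA files hold raw counts per gene, and the notes also list CASAVA 1.8, TopHat2 2.0.8, Bowtie2 2.1.0, HTSeq 0.5.3p9 and edgeR 3.0.6 on hg19. Per the labels' protocols the RNA kit does not mark strand, so overlapping genes are uncertain.

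Peaks sharing at least 1 bp were counted as overlapping, and distances are bases between peak edges. The overlap code was tested on simulated peaks. Shares carry exact binomial (Clopper-Pearson) 95% intervals. The 12 RNA libraries (6 groups of 2, 9092597 to 37314039 gene counts each) entered 1 fit in edgeR 4.0.16 (R 4.3.3) with TMM scaling, filterByExpr (15550 of 23230 genes kept) and the quasi-likelihood test on 6 residual degrees of freedom. Both extremes of depth were the siControl libraries of abl, and the siControl libraries of LNCaP held 27555950 and 15200856 gene counts. Lines naming no gene were left out, with no-feature reads at 54.8% to 58.3% and ambiguous reads at 0.774% to 0.924%. The control columns stand in several tables, and 8 of 8 repeated columns were identical. DESeq2 1.42.0 was an alternative.

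Named sites were the 10 of highest score, the widest, 3 of the groups and 2 on either side of each threshold. The site farthest from LNCaP CREB1 was added after its values were seen. Genes were taken from the CREB and protein kinase A lists, with CREB1 and FOXA1. The sites and lists were chosen with earlier results of these data known. No hg19 genome or gene positions were used, so planned results on gene starts, motifs and genes beside sites were not run, and chromosomes were compared instead. Some of the marker genes are not reported here.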

Additional observations from a re-analysis of the deposited data

How the results depend on the processing

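The number of sites rested on the score floor. It was 2377 at an abl score of at least 100, 405 at or above the median abl score, and 7449 with LNCaP peaks below their median score ignored. It was 2023 with the abl list cut to the LNCaP length, chosen after seeing the data. It stayed within 1.5 times the main count with overlap counted within 500 bp (3431) or 1000 bp (3234), with a shared stretch of 50% of the shorter peak asked for (3914), or with FOXA1 peaks below their median score ignored (5133). The share of private peaks without FOXA1 (41.2%) was 38.4% and 36.8% within 500 and 1000 bp, 42.5% under the rule on the shorter peak, 49.9% at or above the median abl score, 55.8% with weak FOXA1 peaks ignored and 44.2% with weak LNCaP peaks ignored. At scores of 400 and over (69.8%) it ran from 61.3% with weak LNCaP peaks ignored to 83.7% with weak FOXA1 peaks ignored, with 66.3% and 63.9% within 500 and 1000 bp. These alternatives for the shares were added after seeing the data.

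Leaving out 1 library at a time gave 4047 to 4585 genes higher and 4259 to 4966 lower in abl, a CREB1 log2 difference of -0.09 to -0.03 and a FOXA1 difference of -0.59 to -0.37. The replicate block gave 4804 higher and 5198 lower and changed no call of CREB1 or FOXA1. For each group, library 1 was taken as its deviation from the group mean in log2 CPM, gene by gene. These deviations correlated at -0.05 to 0.23 over 15 pairs of groups, 3 of them above 0.1. The highest, 0.23, was that of the siControl groups of both lines, the groups compared here. In both of these groups library 1 was much deeper than library 2, and what depth adds to this correlation was not tested. The labels give the library numbers no shared source, however, and not every pair of groups was above 0.1. Same-numbered libraries were therefore not taken as pairs. The Spearman rho over chromosomes ran from 0.60 to 0.70 over 12 alternatives and was 0.51 with chromosomes 18, 9 and 2 left out, added after seeing the data. Results on gene starts, motifs and genes beside sites were not run. With 1 list per factor and line, depth limits what the absence of a peak shows.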
